A study of Mus musculus with 6 samples.

Results

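The collagen chains measured here were all rows whose gene symbol has the form Col, number, a, number, without 1 such row (Col11a2) whose row identifier places it on chromosome 17, which the rule leaves out together with chromosome 14. These were 41 chains among 19571 rows with 1 gene symbol. Collagens are trimers of chains that share a glycine-rich repeat, and they make up most of the protein of bone. Fibrillar collagens assemble into the fibrils that mineralize, network collagens form sheets such as basement membranes, FACIT collagens (fibril-associated collagens with interrupted triple helices) sit on the surface of fibrils, type VI collagen forms beaded filaments, and transmembrane collagens are anchored in the cell surface. An osteoblast hydroxylates and folds these chains in the endoplasmic reticulum, exports them, trims the procollagen ends and cross-links the fibrils.

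RNA of 6 samples of MC3T3-e1 cells, an osteoblastic line from mouse calvaria, was hybridized to Clariom S mouse arrays, with 3 arrays of WT cells and 3 of Tmem161a-KO cells. The KO cells carry deletions in Tmem161a made with CRISPR/Cas9 and form 1 line established by limited dilution, so that an effect of Tmem161a and a property of that line cannot be told apart. The sources used here give no culture day, medium or treatment for the arrayed cells and do not state whether the replicates were separate cultures, so the p-values measure only the spread between these samples. The question was how the expression of each collagen class in Tmem161a-KO cells compared with that in WT cells. Fewer cells of a type and less RNA per cell cannot be told apart in such samples.

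The median intensity per array was 214 to 215 in WT and 204 to 208 in Tmem161a-KO, and the upper quartile was 1379 to 1393 in WT and 1439 to 1455 in Tmem161a-KO. Tmem161a itself read 1155, 1061 and 1229 in WT and 936, 1001 and 963 in Tmem161a-KO, a log2 difference of -0.25 ± 0.11 (SE) that did not pass (adjusted p = 0.192), and the position of its array probes relative to the edited bases is not known here, so this row checks neither label. Of 10 osteoblast markers 8 were measured and 4 stood above background. Sparc lay at 387931 to 413343 on the 6 arrays. Sp7 was higher in Tmem161a-KO by 2.27 ± 0.13 on the log2 scale (adjusted p = 3.68e-08). Bglap was lower on every Tmem161a-KO array without passing (-0.30 ± 0.12, adjusted p = 0.133). Pth1r gave 0.31 ± 0.15 with overlapping groups (adjusted p = 0.234). Alpl, Ibsp, Dmp1 and Phex stayed at background in both groups. Background was taken as the 95th percentile of 1091 olfactory receptor rows, an intensity of 100.1, since these genes are not used by bone cells. The macrophage, endothelial, adipocyte, epithelial and muscle lists held 25 measured rows, of which Lpl and Krt18 were lower and none higher, beside 9.91% called over all rows. Of 5 epithelial rows, 2 were lower without overlap and 1 higher, beside 28.9% of all rows without overlap in either direction. The higher row, Krt14, did not pass (0.36 ± 0.11, adjusted p = 0.0592).

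RefSeq promoter windows (GRCm38.p6, 250 bases before to 50 after a gene's start) matched 33 of the 41 chains, with 36 windows. The bases before the start are shown for Col27a1 and Col5a1, the chains that were higher in Tmem161a-KO, and for Col6a1 and Col6a2, neighbouring type VI genes whose array values followed each other. Capitals mark matches on either strand, which may overlap, to 5 motifs. These were the GC box, searched as GGGCGG, the CCAAT box, searched by the letters of its name, the TATA box, searched with TATAAA as its letters, the AP-1 motif, written TGANTCA with any base at N, and the RUNX motif, given by TGTGGT alone.
Col27a1, chr4:63215162-63215411, + strand: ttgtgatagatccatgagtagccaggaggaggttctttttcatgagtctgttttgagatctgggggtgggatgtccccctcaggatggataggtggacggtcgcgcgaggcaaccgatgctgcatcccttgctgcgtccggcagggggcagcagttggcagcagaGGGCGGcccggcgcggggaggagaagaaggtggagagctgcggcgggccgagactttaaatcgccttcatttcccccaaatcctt
Col5a1, chr2:27886175-27886424, + strand: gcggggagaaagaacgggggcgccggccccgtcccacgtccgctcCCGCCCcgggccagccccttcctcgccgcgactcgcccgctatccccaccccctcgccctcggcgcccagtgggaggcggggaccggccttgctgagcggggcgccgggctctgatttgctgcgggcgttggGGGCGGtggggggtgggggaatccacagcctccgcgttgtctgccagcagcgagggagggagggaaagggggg
Col6a1, chr10:76726045-76726294, - strand: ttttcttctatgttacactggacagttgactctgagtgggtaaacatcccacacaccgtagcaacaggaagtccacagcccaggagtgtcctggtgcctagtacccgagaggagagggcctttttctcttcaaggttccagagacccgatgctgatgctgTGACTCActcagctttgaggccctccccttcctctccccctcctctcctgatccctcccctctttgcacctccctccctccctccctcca
Col6a2, chr10:76623405-76623654, - strand: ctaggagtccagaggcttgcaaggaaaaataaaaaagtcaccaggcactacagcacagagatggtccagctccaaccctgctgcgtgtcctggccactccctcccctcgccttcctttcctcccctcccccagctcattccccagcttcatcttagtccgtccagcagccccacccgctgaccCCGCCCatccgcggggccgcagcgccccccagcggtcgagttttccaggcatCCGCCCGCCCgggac
The stretches shown hold 2 GC boxes for Col5a1, 1 for Col27a1, 3 for Col6a2 and none for Col6a1, which holds the only AP-1 match among all collagen windows. Col6a2 has a second window, not shown, which held 1 GC box. Over the windows of the collagen genes, 58.3% held a GC box, 33.3% a CCAAT box, 11.1% a TATA box, 8.33% the RUNX motif and 2.78% the AP-1 motif. Over all 32851 windows of the table these shares were 35.7%, 37.4%, 13.6%, 16.8% and 7.81%. The GC content of the collagen windows ran from 37.7% to 75% with a median of 60%, against a median of 52.7% over all windows. The windows of Col15a1 and Col20a1, both lower in Tmem161a-KO, held none of the 5 motifs. The same held for Col19a1, Col4a4, Col6a3, Col24a1 and Col28a1, which were not called. Col6a2, also lower, held GC boxes, and no window matched Col2a1, the remaining chain called lower. The TATA box was held by the windows of Col3a1, Col10a1, Col13a1 and Col17a1. Col4a1 and Col4a2 lie head to head, and their windows overlap by 78 bases (chr8:11312777-11312854). A match is a description of letters and not a bound site.

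Of the 41 chains, 2 rose in Tmem161a-KO cells (Col27a1 and Col5a1), 4 fell (Col2a1, Col15a1, Col6a2 and Col20a1) and 35 did not pass (limma, adjusted p under 0.05 over all rows). The 6 calls make up 14.6% of the chains, against 9.91% of all rows (5.73% higher and 4.17% lower), 8.94% of rows outside chromosomes 14 and 17, and 14.3% of those that were also brighter than the median row. All 6 called chains were among the 28 chains brighter than the median row, or 21.4% of these. The WT and Tmem161a-KO arrays did not overlap for 12 chains (29.3%), 3 higher and 9 lower, against 28.9% of all rows, and for 10 of the 34 chains above background. The share of chains without overlap was thus near that of all rows. The direction leaned to lower values, since 32 of 41 chains (78.0%) had a log2 difference below 0, against 52.8% of all rows. Of the 34 chains above background, 26 lay below 0 (76.5%). Among the 28 brighter chains 22 lay below 0 (78.6%), against 40.3% of the brighter rows outside chromosomes 14 and 17. The differences were small, with a median of -0.16 on the log2 scale (-0.01 over all rows) and a range from -0.82 to 0.95. At an unadjusted p under 0.05, 3 chains were higher and 11 lower. Student's t-test is named in the general statistics section of the methods, which state no model for the arrays. With this test (the methods' t-test) in place of limma, none passed after adjustment, and 190 of all rows did. The signal of 7 chains (Col24a1, Col10a1, Col4a3, Col14a1, Col6a5, Col6a6 and Col17a1) was not above background in either group, so their differences are not read.

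**Figure D1:**
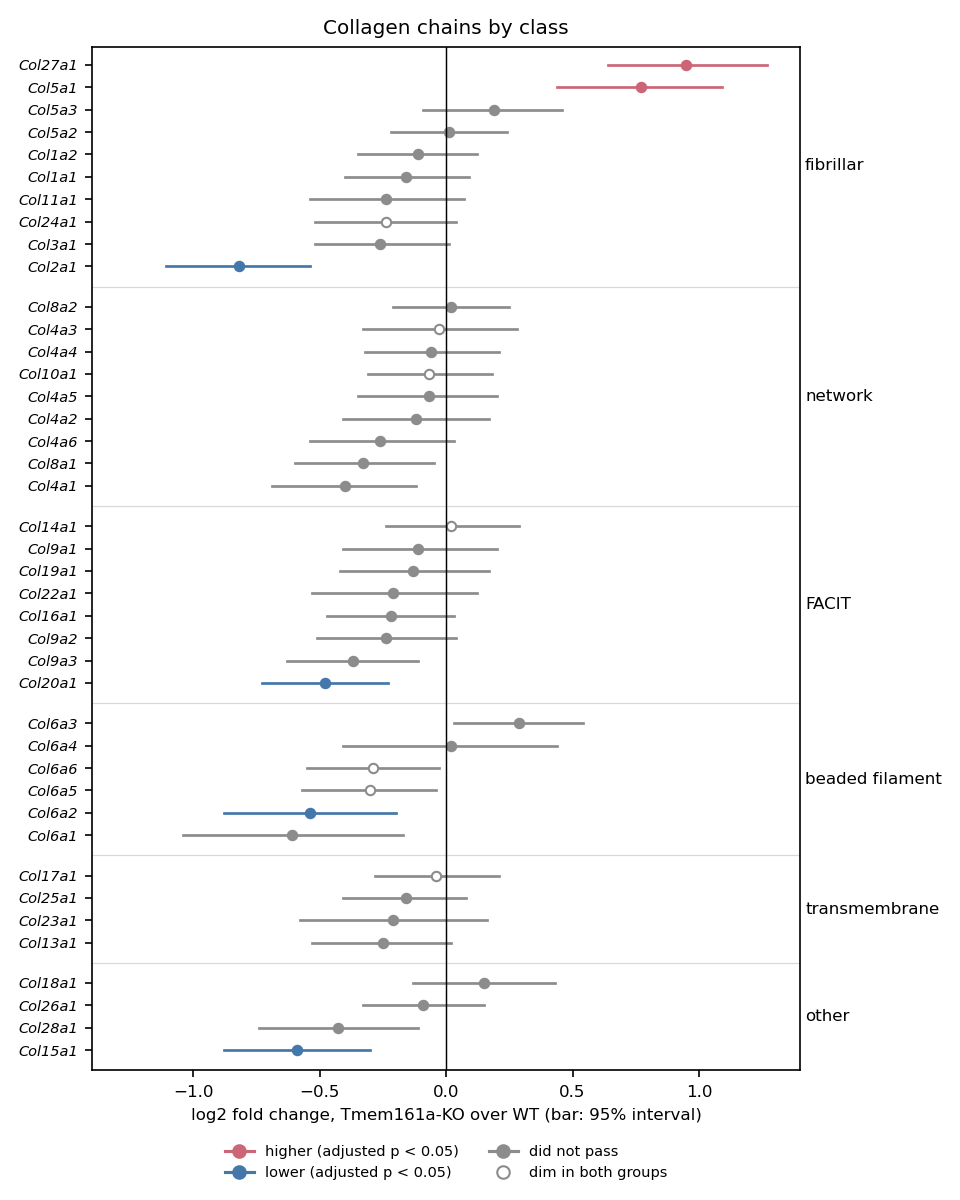
Log2 fold change of each collagen chain, Tmem161a-KO over WT, by class, with bars for the 95% interval from limma (3 arrays per group). Most points lie left of 0, and only Col27a1 and Col5a1 passed as higher, while open circles mark the 7 chains at background in both groups.

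Taken by array, as the median over all 41 chains of each array's distance from the WT mean, the WT arrays lay at -0.04, 0.05 and 0.00 and the Tmem161a-KO arrays at -0.17, -0.07 and -0.23 on the log2 scale. Tmem161a-KO replicate 2 lay nearest to the WT arrays. The FACIT median was 0.00, 0.02 and -0.01 in WT and -0.24, -0.07 and -0.37 in Tmem161a-KO, and the fibrillar median was 0.02, -0.01 and 0.05 in WT and -0.03, -0.02 and -0.25 in Tmem161a-KO. In these classes and in the transmembrane and network classes replicate 3 of Tmem161a-KO was the lowest array, whereas in the beaded filament class (-0.30 against -0.18) and among the remaining chains (-0.33 against -0.25) it was replicate 1. The groups overlapped in the network class, where WT replicate 1 lay at -0.19 and the Tmem161a-KO arrays at -0.14, -0.07 and -0.21, in the beaded filament and transmembrane classes, and among the remaining chains.

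Fibrillar chains held both the largest rise and the largest fall. Of 10 chains, 2 rose, 1 fell and 7 did not pass, with a median of -0.13, which became -0.07 without Tmem161a-KO replicate 3 and -0.07 with arrays centred on their median. The counts by class, here and below, rest on few chains each. They stand beside 9.91% called over all rows and 14.3% of the brighter rows outside chromosomes 14 and 17. Col27a1 encodes the single chain of type XXVII collagen, a fibrillar collagen best known from cartilage. It read 391, 386 and 500.1 in WT and 944, 661 and 874 in Tmem161a-KO. Every Tmem161a-KO array lay above every WT array, and the difference was 0.95 ± 0.15 (SE) on the log2 scale, or 1.93-fold (adjusted p = 5.25e-04). Col5a1 encodes a chain of type V collagen, which nucleates type I fibrils and limits their diameter. Its intensities were 8840.4, 11464 and 13610.1 in WT and 17693, 21760.3 and 17597 in Tmem161a-KO. The WT arrays spread widely, yet the groups did not overlap, and Col5a1 rose by 0.77 ± 0.15, or 1.70-fold (adjusted p = 0.00380).

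The partners of Col5a1 in type V trimers did not pass. Col5a2, the second chain of the common trimer, lay between 27722 and 30329 in WT and between 28619.7 and 29962 in Tmem161a-KO, with a log2 difference of 0.01 ± 0.11 (95% interval up to 0.24). Col5a3, the chain of a rarer trimer, gave 0.19 ± 0.13 (adjusted p = 0.403). Col11a1, which can join type V chains in mixed trimers, gave -0.24 ± 0.14 (adjusted p = 0.332).

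Col2a1, the chain of type II collagen of cartilage, read 1328, 1233 and 1014 in WT and 629.7, 619.7 and 766 in Tmem161a-KO. All 3 Tmem161a-KO arrays lay below the WT arrays. Col2a1 fell by 0.82 on the log2 scale, to 0.565 of the WT level (SE 0.13, adjusted p = 6.98e-04). Beside it, none of 8 chondrocyte markers passed, and 7 of the 8 lay below 0 (median -0.10). Their summed intensity was 8431 to 11308 in WT and 10261 to 13992 in Tmem161a-KO, nearly all of it from Sox9 (mean 9094 in WT and 12143 in Tmem161a-KO). Sox9, the cartilage transcription factor that drives Col2a1, gave 0.41 ± 0.15 (adjusted p = 0.0954), and Acan, the cartilage proteoglycan, gave -0.45 ± 0.15 (adjusted p = 0.0678). Snorc was the third marker above background, and Matn1, Matn3, Hapln1, Chad and Ihh were not. The part of cartilage-like cells in the Col2a1 difference was not tested.

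Type I collagen, the main fibril of bone, was measured through Col1a1 and Col1a2. Col1a1 read 179618, 179314 and 170576 in WT and 158899, 174691 and 143268 in Tmem161a-KO. Col1a2 read 197267, 197520.2 and 184908 in WT and 179546, 189453 and 167774 in Tmem161a-KO. In both chains the groups overlapped through Tmem161a-KO replicate 2, and the log2 differences were -0.16 ± 0.12 (adjusted p = 0.448) and -0.11 ± 0.11 (adjusted p = 0.588). The 95% interval of Col1a1 reached up to 0.09 and that of Col1a2 up to 0.12. Col3a1, the chain of type III collagen that mixes into type I fibrils of soft tissue, gave -0.26 ± 0.12 (adjusted p = 0.219).

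**Figure D2:**
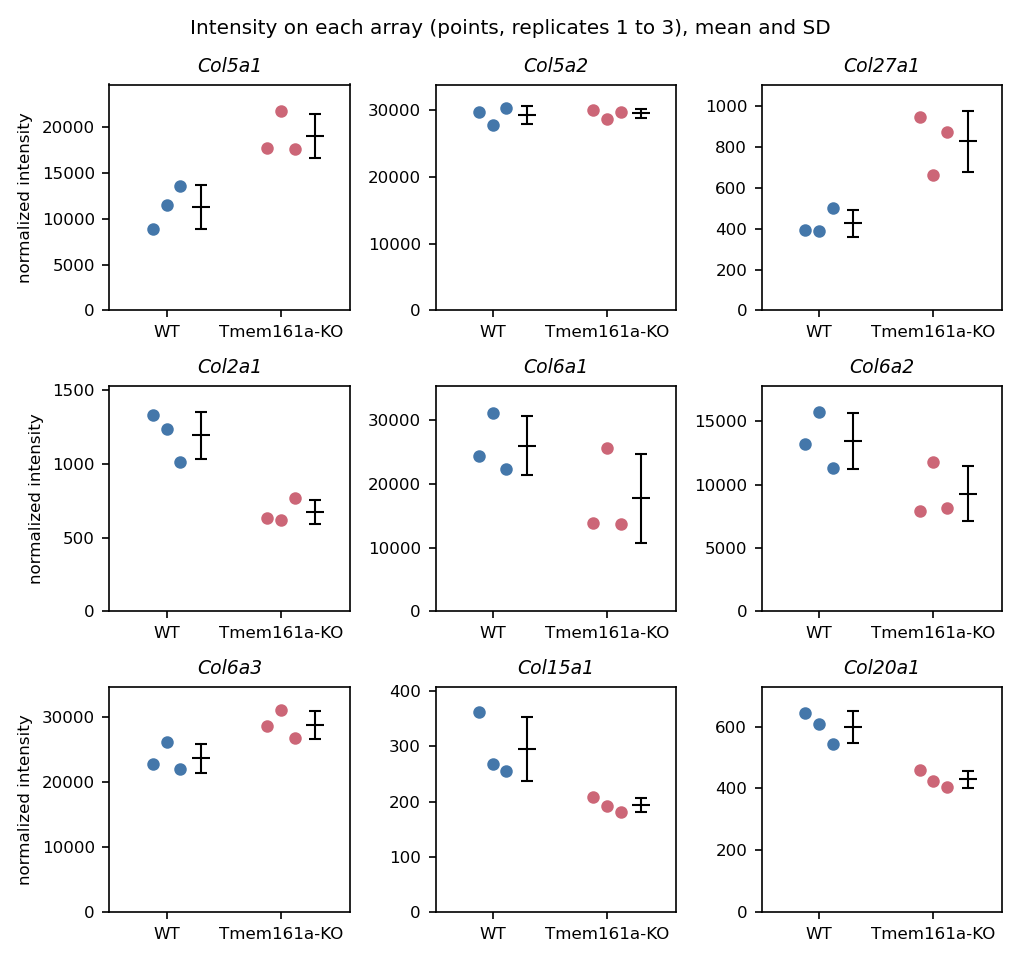
Normalized intensity (linear scale from 0) of 9 collagen chains on each array, with the mean and SD of each group of 3 at the right of its points. Col5a1 and Col27a1 are higher and Col2a1, Col15a1 and Col20a1 lower on every Tmem161a-KO array, Col5a2 shows no separation, and replicate 2 is the highest array of each group for Col6a1 and Col6a2.

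Network collagens held no call among 9 chains, with a median of -0.07 and a range from -0.40 to 0.02. This median moved to -0.17 without WT replicate 1, to -0.15 without Tmem161a-KO replicate 2, to -0.11 without WT replicate 2, to -0.04 without WT replicate 3, to -0.01 with arrays centred on their median and to -0.12 over the 7 chains above background. Col4a1 and Col4a2 encode the chains of the type IV collagen found in nearly all basement membranes. Col4a1 read 1064, 1436 and 1264 in WT and 1049, 931 and 853 in Tmem161a-KO. The arrays did not overlap, but only just, and the difference of -0.40 ± 0.13 missed the threshold (adjusted p = 0.0691). Without WT replicate 1 it was -0.52 and passed (adjusted p = 0.0408). Col4a2 read 2609.6, 3461 and 3559 in WT and 3195, 2891 and 2716 in Tmem161a-KO, with overlapping groups and a difference of -0.12 ± 0.13 (adjusted p = 0.640). Col8a1, a chain of the short-chain network collagen VIII, read 1581, 1951 and 2002 in WT and 1539, 1597 and 1277 in Tmem161a-KO, a difference of -0.33 ± 0.13 (adjusted p = 0.137), and its partner Col8a2 gave 0.02 ± 0.11 (adjusted p = 0.95). The type IV chains of specialised basement membranes that stood above background, Col4a4, Col4a5 and Col4a6, gave -0.06, -0.07 and -0.26 with overlapping groups.

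FACIT collagens held 1 fall among 8 chains and no rise, with a median of -0.21. Col20a1, the chain of type XX collagen, read 645, 609 and 544 in WT and 459.8, 425 and 405 in Tmem161a-KO. The groups were clearly apart, and Col20a1 fell by 0.48 on the log2 scale (SE 0.12, adjusted p = 0.0162). It did not pass without WT replicate 1, WT replicate 2 or Tmem161a-KO replicate 3 (adjusted p = 0.0786, 0.0594 and 0.0631). Col9a3, one of the chains of type IX collagen that decorates type II fibrils, read 789, 843 and 787 in WT and 574, 724 and 585 in Tmem161a-KO. Its groups did not overlap either, with a difference of -0.37 ± 0.12 that did not pass (adjusted p = 0.0703). Leaving out Tmem161a-KO replicate 2 brought it to -0.48 (adjusted p = 0.0277). The other type IX chains gave -0.24 ± 0.13 for Col9a2 and -0.11 ± 0.14 for Col9a1, both with overlapping groups. Col16a1, which occurs in small fibril-associated assemblies, read 1117, 1165 and 1200.2 in WT and 1016, 1094 and 890.2 in Tmem161a-KO, a difference of -0.22 ± 0.12 (adjusted p = 0.268). Col22a1 and Col19a1 gave -0.21 and -0.13.

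Beaded filament collagen held 1 call, the fall of Col6a2. Col6a1, Col6a2 and Col6a3 together build the classical type VI trimer, which links cells to the pericellular matrix. Col6a1 (chromosome 10) read 24438, 31191 and 22346 in WT and 13797, 25688 and 13645 in Tmem161a-KO. Col6a2, its neighbour on chromosome 10, read 13167, 15753 and 11323 in WT and 7951, 11795 and 8119.9 in Tmem161a-KO. Replicate 2 was the highest array of both groups in both chains, and in Tmem161a-KO it reached into the WT range. Col6a2 fell by 0.54 (SE 0.16, adjusted p = 0.0432), whereas Col6a1, with the larger difference of -0.61 ± 0.20, did not pass (adjusted p = 0.0742). Without Tmem161a-KO replicate 2, Col6a1 gave -0.91 and passed (adjusted p = 0.00141). Without WT replicate 1, WT replicate 2, Tmem161a-KO replicate 1 or Tmem161a-KO replicate 3, Col6a2 no longer passed (adjusted p = 0.102, 0.182, 0.162 and 0.162), nor did it with arrays centred on their median (adjusted p = 0.0619).

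Col6a3 (chromosome 1) read 22718, 26207 and 21957 in WT and 28546, 31016 and 26790.1 in Tmem161a-KO. Each Tmem161a-KO array lay above the WT arrays, with a difference of 0.29 ± 0.12 that did not pass (adjusted p = 0.147). Replicate 2 was again the highest array of each group. Among the chains that can take the place of Col6a3, Col6a4 gave 0.02 ± 0.20, and Col6a5 and Col6a6 were at background, with 44.2 to 67.5 for Col6a5 and 57.4 to 88.1 for Col6a6 over the 6 arrays. Over the 6 type VI chains 1 fell, none rose, and the median was -0.30. This median rests on the middle chains Col6a5 (-0.30) and Col6a6 (-0.29), which were at background.

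Transmembrane collagens held no call among 4 chains (median -0.19). Without Col17a1, which was at background, the median of the other 3 was -0.21, and over all 4 it was -0.11 without WT replicate 2. Col13a1, found at cell adhesions and neuromuscular junctions, read 894, 948 and 738 in WT and 671, 813 and 678 in Tmem161a-KO, with overlapping groups and a difference of -0.25 ± 0.13 (adjusted p = 0.248). Col25a1, known from motor innervation and amyloid plaques, read 547, 627 and 552 in WT and 541, 528 and 472 in Tmem161a-KO, without overlap and with a difference of -0.16 ± 0.12 (adjusted p = 0.419). Col23a1 gave -0.21 ± 0.17 (adjusted p = 0.496) and, without WT replicate 3, -0.46 (adjusted p = 0.0441).

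The 4 chains outside these classes had 1 fall and a median of -0.26, or -0.16 without Tmem161a-KO replicate 1. Col15a1 and Col18a1 are the multiplexins, basement membrane collagens that carry sugar chains and release anti-angiogenic fragments. Col15a1 read 362, 268 and 256 in WT and 208, 192 and 182 in Tmem161a-KO. All Tmem161a-KO arrays lay below the WT arrays, and Col15a1 fell by 0.59 (SE 0.14, adjusted p = 0.0119). WT replicate 1 was its highest array, and without it or without Tmem161a-KO replicate 3 the call was lost (adjusted p = 0.0655 and 0.0548). Col18a1, its closest relative, gave 0.15 ± 0.13 (adjusted p = 0.529). Beside them, none of 5 endothelial markers passed, and their summed intensity was 342 to 373 in WT and 356 to 358 in Tmem161a-KO, with 4 of the 5 at background. Col28a1, a chain with von Willebrand factor type A domains known from nerve, read 573, 596 and 457 in WT and 324, 475 and 419 in Tmem161a-KO, overlapping, with a difference of -0.43 ± 0.15 (adjusted p = 0.0872). It passed at -0.54 when WT replicate 3 was left out (adjusted p = 0.0479) and at -0.55 when Tmem161a-KO replicate 2 was (adjusted p = 0.0430). Col26a1 gave -0.09 ± 0.11.

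Whether chains that share a trimer kept their proportion was examined through the log2 ratio of 12 pairs on each array. Only the change of a ratio between groups is read here, by a two-sided exact permutation test of 3 against 3 arrays, whose smallest p is 0.1, so that no pair could pass 0.05. Ratios were set to a mean of 0 over the WT arrays. Col5a1 over Col5a2 lay at -0.35, 0.12 and 0.23 in WT and at 0.63, 1.0 and 0.63 in Tmem161a-KO, a change of 0.75 (exact p = 0.1, adjusted over the pairs 0.200). Col5a1 over Col5a3 changed by 0.58 and Col11a1 over Col5a1 by -1.0, both with the same p. These 3 ratios share the Col5a1 values.

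Col6a2 over Col6a3 lay at 0.04, 0.09 and -0.13 in WT and at -1.02, -0.57 and -0.90 in Tmem161a-KO, a change of -0.83 (exact p = 0.1, adjusted 0.200). The ratio of Col6a1 to Col6a2 changed by -0.06 (exact p = 0.6), with overlapping groups. Within the ratio to Col6a3, replicate 2 of Tmem161a-KO thus stood apart from all WT arrays, although its Col6a2 intensity reached the WT range. Col4a1 over Col4a2 changed by -0.28 and Col8a1 over Col8a2 by -0.34, both without overlap and with the smallest p. Col1a1 over Col1a2 stayed between -0.01 and 0.01 in WT and between -0.10 and 0.01 in Tmem161a-KO, a change of -0.04 (exact p = 0.3, adjusted 0.514). The ratios within Col4a3 (at background) and Col4a4, Col4a5 and Col4a6, and the type IX chains changed by 0.03 to 0.18 with overlapping groups.

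**Figure D3:**
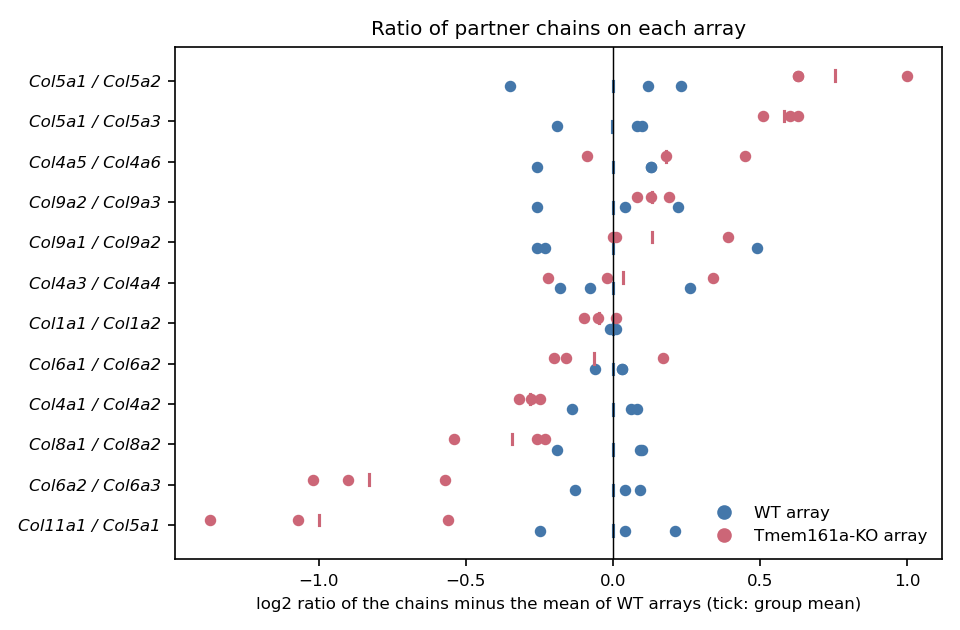
Log2 ratio of partner chains on each array, relative to the mean of the 3 WT arrays, with ticks for group means. The Tmem161a-KO points lie right of the WT points for the ratios of Col5a1 to Col5a2 and Col5a3 and left of them for Col6a2 over Col6a3 and Col11a1 over Col5a1, while Col1a1 over Col1a2 stays near 0.

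Of 57 listed genes that hydroxylate, fold, export, trim, cross-link or bind collagens, 51 were measured, and 12 were higher and 4 lower (31.4% called, median 0.17). Since 40 of the 51 were brighter than the median row, this stands beside 14.3% called and a median of 0.06 for brighter rows outside chromosomes 14 and 17, and beside 9.91% called over all rows. Unlike those brighter rows, the list also holds dimmer genes, Bmp1 on chromosome 14, and Mep1a and Ddr1 on chromosome 17. The list was chosen with earlier results of these data known, so its share of calls is a description. The counts by step below rest on few genes each and are read against the same shares. Hydroxylation and folding genes (17 measured) gave 3 higher and 2 lower. P4ha2, a catalytic subunit of collagen prolyl 4-hydroxylase, read 2820.0 to 4188 in WT and 6199.7 to 7738 in Tmem161a-KO (1.08 ± 0.15, adjusted p = 2.02e-04). Its relative P4ha3 fell by 0.64 and Plod2, which hydroxylates telopeptide lysines, rose by 0.77. P3h2, a prolyl 3-hydroxylase that acts on type IV collagen, read 2202 to 3119 in WT and 362 to 856 in Tmem161a-KO and fell by 2.17 (SE 0.23, adjusted p = 1.56e-05), the largest difference in the list.

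Secretion genes gave 3 higher and none lower among 8, beside 5.73% higher and 4.17% lower over all rows, including Sec23a, a coat protein of the vesicles that leave the endoplasmic reticulum (0.74), and Creb3l1, a transcription factor that activates type I collagen and secretory genes in mouse osteoblasts (0.69). Procollagen processing genes gave 3 higher and none lower among 9. Bmp1, the procollagen C-proteinase, read 1614 to 1961 in WT and 6534 to 8081 in Tmem161a-KO (1.96 ± 0.13, adjusted p = 1.03e-07), and its row lies on chromosome 14, which the rule for the chains leaves out. Adamts14, a procollagen N-proteinase, gave 1.01. The C-proteinase enhancer Pcolce2 gave 0.60 with overlapping groups. It read 105 to 149 in WT and 145 to 254 in Tmem161a-KO, beside a background of 100.1. Its relative Pcolce, with means of 55179 in WT and 43875 in Tmem161a-KO, was lower on every Tmem161a-KO array without passing (-0.33 ± 0.12, adjusted p = 0.0868). Cross-linking genes gave 2 higher and 2 lower among 8, with Lox at 0.68 and, below 0, its relative Loxl4 at -0.55 and the transglutaminase Tgm2 at -1.02. Receptor and uptake genes gave 1 higher and none lower among 9.

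**Figure D4:**
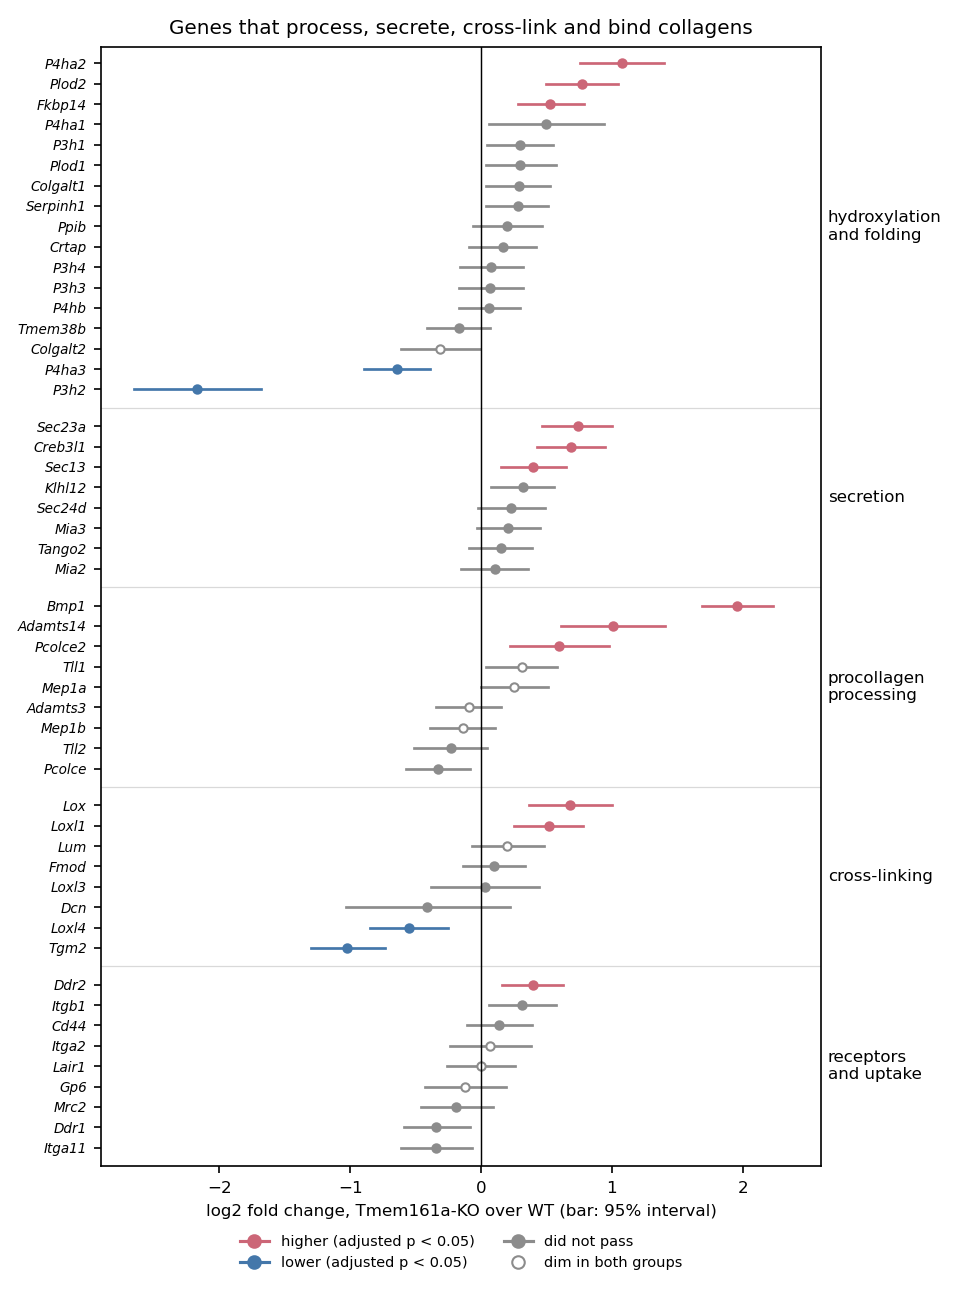
Log2 fold change, Tmem161a-KO over WT, of 51 genes that act on collagens, by step, with bars for the 95% interval from limma (3 arrays per group). All 8 secretion genes lie right of 0, of which 3 passed, and Bmp1 and P3h2 are the farthest from 0.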

How the data were processed

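The authors deposited a table of normalized intensities on a linear scale for 6 Clariom S mouse arrays (3 WT, 3 Tmem161a-KO), made in GeneSpring and analysed by them in Transcriptome Analysis Console. The sources used here name no background correction, probe summarization, scan date or batch. Of 22205 rows, 19571 had 1 gene symbol in the platform annotation. Intensities were log2 transformed without a pseudocount and fitted with limma 3.58.1 in R 4.3.3 (lmFit, eBayes, Benjamini-Hochberg over the 19571 rows, threshold 0.05). The script was tested on simulated data. The number of arrays limits the precision. Col7a1 and Col12a1 were not analysed here. The members, classes, partner pairs, pathway list and marker lists were chosen with earlier results of these data known.

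All collagen rows could be named, with full values for called chains, the 2 chains with the highest mean of each class, and chains without overlap that differed by at least 0.3. From the pathway list the 12 largest called differences were named, with Pcolce beside Pcolce2. Protein stretches, planned for the largest differences, were not used here, and promoter windows were shown instead. Alternatives were quantile normalization, median centring, robust eBayes with a trend on intensity, weights per array, the methods' t-test, other sets of rows, a replicate block and leaving out each array.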

Additional observations from a re-analysis of the deposited data

How the results depend on the processing

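Col27a1 and Col5a1 were called higher, and Col2a1 was among those called lower, under every alternative run except the methods' t-test (Student's) after Benjamini-Hochberg adjustment, which called 0 chains higher and 0 lower (190 rows in all, against 1939 with limma). Unadjusted, that test gave 3 higher (Col6a3 added) and 4 lower, with Col9a3 in place of Col6a2, which was not called. For limma at an unadjusted p under 0.05 the counts were 3 and 11. Leaving out 1 array each gave 2 higher throughout and 1 to 7 lower. The lower calls numbered 2 without WT replicate 1 or 2, 7 without Tmem161a-KO replicate 2 and 1 (Col2a1) without Tmem161a-KO replicate 3. Col6a2, Col15a1 and Col20a1 each lost their call in some of these fits. The cause was not tested. Quantile normalization gave 6 lower, adding Col4a1 (-0.48) and Col9a3 (-0.42), and median centring gave 3, without Col6a2 (-0.48, adjusted p = 0.0619).

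The medians of the 6 classes stayed below 0 under each setting run, and those that moved by over 1.5 times stand beside their class.

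The labels number the replicates 1 to 3 in both groups. Same-numbered arrays deviated together only weakly (r = 0.0719, 0.0945 and 0.0205), and differently numbered arrays gave r from -0.11 to 0.0398. Whether the numbers pair the arrays is not known, and the main fit used no pairing. With the replicate block, 2 chains were higher and 5 lower, with Col6a1 (-0.61, adjusted p = 0.00845) added.

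Of 649 values of single chains under alternatives, 594 kept direction and side of the threshold and 27, of 11 chains that were not called, changed sign. Under quantile normalization these were Col4a3 (0.03), Col5a2 (-0.06), Col8a2 (-0.07), Col26a1 (0.01), Col4a5 (0.01) and Col17a1 (0.04), and under median centring Col4a3 (0.04), Col4a4 (0.00) and Col17a1 (0.02). Leaving out 1 array each moved Col9a1 from -0.23 to 0.04, Col4a3 from -0.17 to 0.11, Col5a2 from -0.03 to 0.04, Col4a4 from -0.16 to 0.02, Col8a2 from -0.00 to 0.04, Col6a4 from -0.17 to 0.27, Col4a5 from -0.15 to 0.02, Col10a1 from -0.11 to 0.01, Col14a1 from -0.07 to 0.14 and Col17a1 from -0.12 to 0.03. The ratio changes of Col4a3 to Col4a4 (-0.12 to 0.16) and of Col6a1 to Col6a2 (-0.18 to 0.01) also changed sign.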
